A study of Mus musculus with 9 samples.

Results

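Thbs1, Tgfb1, Tgfbi, Spp1, Fn1, Plau, Plaur, Igf1 and Hbegf encode proteins that macrophages release or carry to build, bind and dissolve extracellular matrix, activate plasminogen and act as growth factors. The genes were picked by symbol, and all 9 were present among the 13593 genes of the deposited count table. They were measured by RNA sequencing in 9 libraries of mouse bone marrow-derived macrophages, 3 for each of the treatments CCL26, CX3CL1 and BSA. All donors were wild-type C57BL/6 mice at 6 weeks of age, and their marrow was cultured for 7 days in DMEM with 15% supernatant of L929 cells, a fibroblast line whose medium feeds macrophage growth. CCL26, CX3CL1 or bovine serum albumin (BSA, the protein control) was then added at 4 nM for 4 h. In the series title both chemokines are called CX3CR1 ligands, and the comparisons ask how each acts on gene expression and where the responses part. Nothing in the labels ties replicates to separate animals or cultures. The p-values therefore reflect only how far these libraries spread, and that spread may be technical.

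As background, TGF-beta 1 is secreted in a latent complex, and thrombospondin 1, the product of Thbs1, is one of the matrix proteins that can release the active cytokine. TGF-beta signals through type I and type II receptors to SMAD proteins, and Tgfbi is named for its induction by it. Osteopontin (Spp1) and fibronectin (Fn1) are ligands of integrins. Urokinase (Plau), held at the cell surface by its receptor (Plaur), turns plasminogen into plasmin, which cuts fibrin and matrix. IGF-1 and HB-EGF are growth factors that macrophages supply to neighbouring cells in wound repair; HB-EGF is made as a membrane precursor and shed to act on the EGF receptor.

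Libraries held 16923982 to 23198324 counts. CX3CL1 replicate 1 stood apart. No read was counted for 1193 genes there, where the other 8 libraries each had 80 to 170 such genes, and its log2 values correlated with theirs at a mean of 0.899 across genes, against at least 0.970 for each of the others. The common biological coefficient of variation, the spread between replicates that edgeR estimates, was 0.277 with all 9 libraries and 0.0773 with CX3CL1 replicate 1 left out. Each result is therefore given from the fit of all 9 libraries and from the fit of the other 8. Levels are in CPM, counts relative to the scaled size of the library. A gene passed the test at a Benjamini-Hochberg adjusted p under 0.05 in edgeR's quasi-likelihood test over all genes tested, 12915 with 9 libraries and 13245 with 8. All 9 genes were tested in both.

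All 14 macrophage markers were in the table. Their summed level was 26783 to 26984 CPM in CCL26 libraries, 30694 to 48845 CPM in CX3CL1 libraries and 32582 to 33145 CPM in BSA libraries. The highest CX3CL1 sum was that of replicate 1. Without it the CX3CL1 libraries had 30694 to 31403 CPM, below all BSA libraries. Stromal markers, 7 of 14 in the table, summed to 15.1 to 18.5 CPM with CCL26, 21.1 to 25.6 CPM with CX3CL1 and 17.2 to 23.3 CPM with BSA. Without CX3CL1 replicate 1 their sum with CX3CL1 was 21.1 to 21.4 CPM. Col3a1, Lum, Pdgfra, Cxcl12, Lepr, Tagln and Thy1 were the stromal markers not in the table. The part of any of these shifts in the results below was not tested, and in bulk RNA fewer cells of a type and less RNA per cell cannot be told apart.

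Per exonic length, the 9 genes differed widely in level. Spp1 averaged 1201 CPM per kb of exon over the 8 libraries (SD 93.7). Its mean over all 9 libraries, 1294 CPM per kb, placed it in the top 0.0957% of genes in the table. Tgfb1 followed at 83.2 CPM per kb (SD 2.22), then Plau at 48.7 (SD 1.70), Thbs1 at 31.4 (SD 3.50), Tgfbi at 30.7 (SD 2.21), Plaur at 23.4 (SD 1.85) and Igf1 at 14.9 CPM per kb (SD 0.491). Hbegf, at 0.365 CPM per kb (SD 0.162), and Fn1, at 0.238 CPM per kb (SD 0.0644), lay far lower. When genes were ranked by the mean over all 9 libraries, 86.5% and 89.2% of genes in the table lay above Hbegf and Fn1. Neighbours in this order did not overlap between libraries, with 2 exceptions: Thbs1 and Tgfbi overlapped, and so did Hbegf and Fn1. These macrophages thus had much osteopontin RNA and very little fibronectin RNA.

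**Figure D1:**
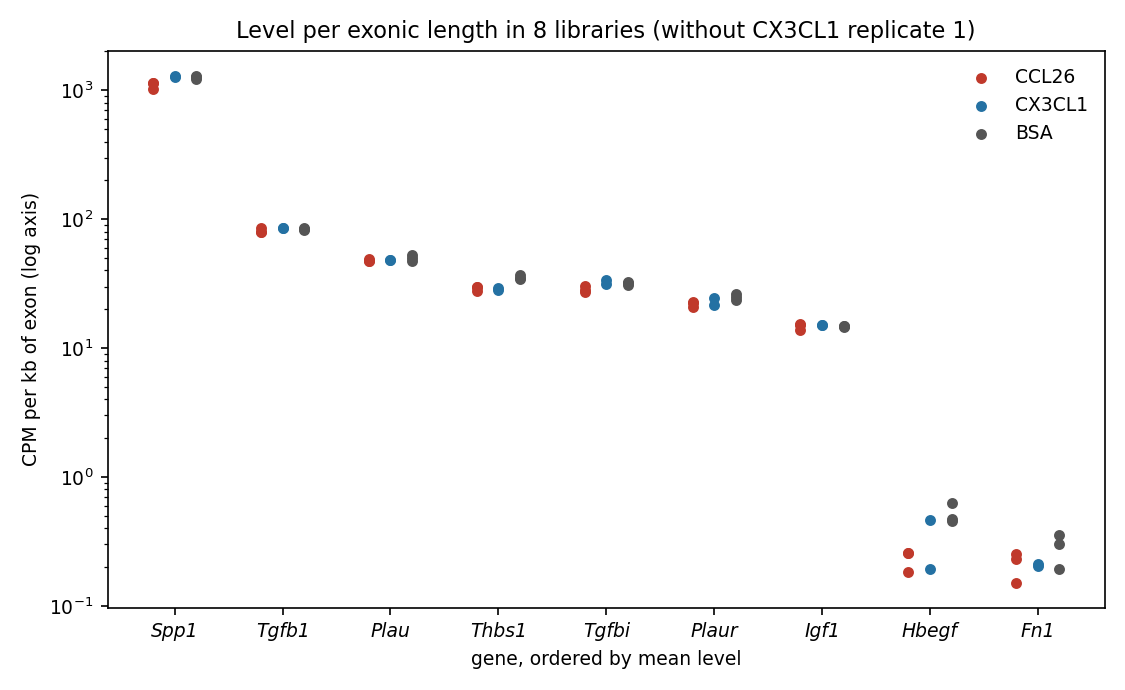
Level per kilobase of exon (CPM per kb, log axis) of the 9 genes in 8 libraries, with CX3CL1 replicate 1 left out; each point is a library, coloured by treatment. Spp1 sits near 1201 CPM per kb, 6 genes lie between 14.9 and 83.2 CPM per kb on average, and Hbegf and Fn1 lie below 1.

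With CCL26 against BSA, 3 of the 9 genes passed the test in the fit without CX3CL1 replicate 1, all of them lower. In the fit of 8 libraries Thbs1 fell by 18.1%, Spp1 fell by 12.1% and Hbegf fell by 55.0%. The other 6 did not pass. Of all genes tested, 19.0% passed in either direction and 9.26% fell. In the fit of all 9 libraries, none of the 9 genes passed (0.434% of all genes did), nor did any reach an unadjusted p under 0.05 (6.13% of all genes did); DESeq2 on the 9 libraries called none of them either. All 9 log2 fold changes were negative in both fits (Igf1 was positive with limma-voom quality weights and with some single libraries left out), with a median of -0.18 over 8 libraries against 0.0082 for all genes, of which 48.6% were negative. The CCL26 libraries all lay below the BSA libraries for Thbs1, Tgfbi, Spp1, Plaur and Hbegf, and 16.5% of all tested genes showed this. Macrophage markers moved the same way: 10 of 14 fell in the fit of 8 libraries and none rose.

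Of Thbs1, Tgfb1 and Tgfbi, the members of the TGF-beta axis, Thbs1 alone passed the test in the fit of 8 libraries. Its level was 180.1, 169 and 179 CPM in CCL26 libraries, 69.7, 173 and 177 CPM in CX3CL1 libraries and 222, 214 and 210.0 CPM in BSA libraries. All 3 BSA libraries were higher than every library of either chemokine. The log2 fold change of CCL26 over BSA was -0.29 in the fit of 8 libraries (SE 0.0469, edgeR adjusted p = 6.46e-05, n = 3 each), and also -0.29 with 9 libraries, where it did not pass (SE 0.293, edgeR adjusted p = 1.0). CX3CL1 replicate 1 is in neither of these groups, so leaving it out changed the standard error and hardly the fold change. Thbs1 lies on chromosome 2 from 118111876 to 118127133, plus strand (GRCm38, GENCODE M21, as for all coordinates here). It has 6073 exonic bases, and an antisense gene, Gm29233, shares 208 of them. No label says whether strand was used in counting, so within these 208 bases reads of the pair cannot be told apart.

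Tgfb1, the cytokine gene itself, had 402, 404 and 428 CPM in CCL26 libraries, 724, 427 and 429.9 CPM in CX3CL1 libraries and 427, 424 and 416 CPM in BSA libraries. CCL26 and BSA libraries overlapped, and the difference was -0.034 on the log2 scale in the fit of 8 libraries, with a 95% interval of -0.11 to 0.045. Tgfbi, a secreted adhesion protein, had 102, 107 and 115 CPM in CCL26 libraries, 144, 117 and 128 CPM in CX3CL1 libraries and 122, 119.6 and 115 CPM in BSA libraries. The CCL26 libraries lay below both other groups, with the highest of them close to the lowest BSA library. Its log2 fold change against BSA was -0.14 with 8 libraries (SE 0.0584, edgeR adjusted p = 0.0979), which did not pass. Tgfb1 is on chromosome 7 from 25687002 to 25705077 and Tgfbi on chromosome 13 from 56609523 to 56639562, both on the plus strand.

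**Figure D2:**
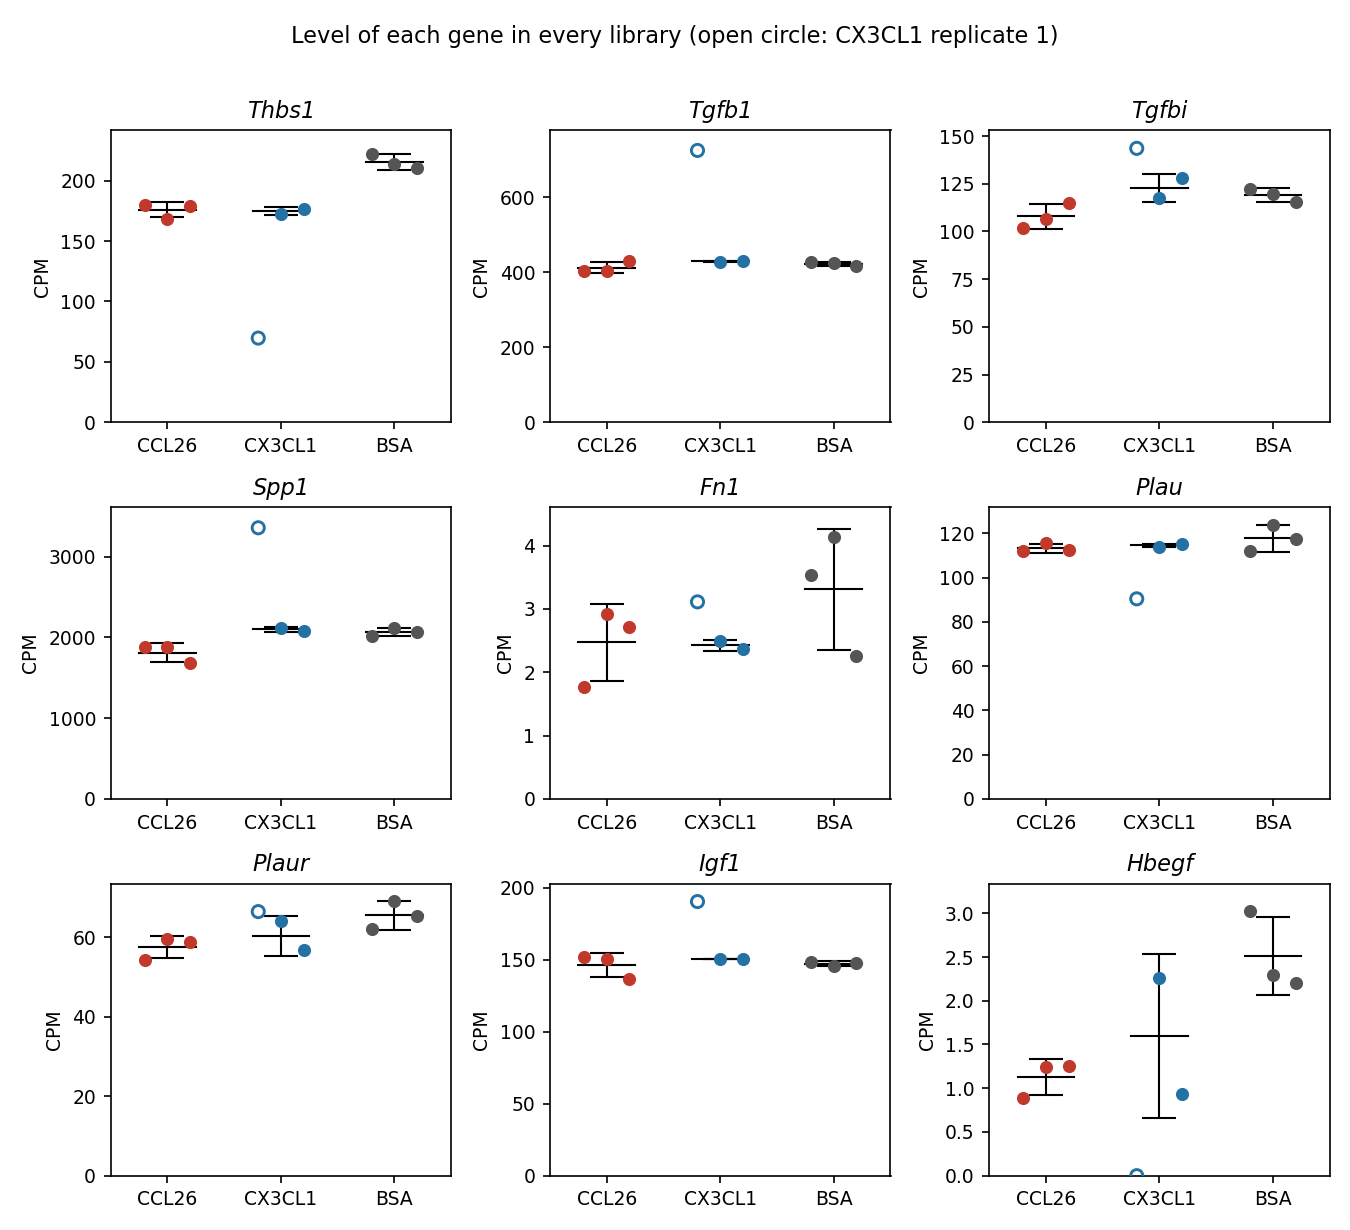
Level of each of the 9 genes (CPM) by treatment; points are single libraries, and bars give the mean and SD of n = 3 libraries for CCL26 and BSA and n = 2 for CX3CL1, whose replicate 1 is the open circle and is left out of the bar. For Thbs1 the CCL26 libraries at 169 to 180.1 CPM and all CX3CL1 libraries sit under the BSA libraries at 210.0 to 222 CPM, while for Spp1 the CCL26 libraries alone are low.

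Of the matrix proteins, osteopontin RNA was lower with CCL26 than in both other groups. Spp1 had 1881, 1876 and 1679 CPM in CCL26 libraries, 3356, 2121 and 2074 CPM in CX3CL1 libraries and 2020.4, 2110.0 and 2069.5 CPM in BSA libraries. No CCL26 library reached the lowest library of either other group. Against BSA the log2 fold change was -0.19 in the fit of 8 libraries (SE 0.0338, edgeR adjusted p = 0.000228, n = 3 each), and -0.19 with 9 libraries without passing (SE 0.1800, edgeR adjusted p = 1.0). Fn1, with 1.77, 2.93 and 2.71 CPM in CCL26 libraries, 3.11, 2.49 and 2.37 CPM in CX3CL1 libraries and 3.54, 4.13 and 2.26 CPM in BSA libraries, overlapped between all groups. These Fn1 values rest on 40 to 81 counts per library. Its log2 fold change of CCL26 over BSA, -0.43 with 8 libraries, had a 95% interval of -1.04 to 0.19. That interval reaches further below 0 than above it and does not exclude 0.

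Spp1 lies on chromosome 5 from 104435118 to 104441050 on the plus strand. Gm42793, on the same strand, shares 309 exonic bases with it and was counted separately, at 0 to 31 counts per library. Fn1 lies on the minus strand of chromosome 1 from 71585520 to 71653200, where the antisense gene Apol7d shares 292 exonic bases with it.

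Neither gene of the urokinase pair passed the test. Plau had 112, 116 and 112 CPM in CCL26 libraries, 90.5, 114 and 115 CPM in CX3CL1 libraries and 112, 124 and 118 CPM in BSA libraries, and the CCL26 and BSA groups overlapped (log2 fold change -0.054 with 8 libraries, 95% interval -0.17 to 0.058). The receptor gene Plaur had 54.4, 59.5 and 58.9 CPM in CCL26 libraries, 66.5, 64.0 and 56.9 CPM in CX3CL1 libraries and 62.0, 69.2 and 65.4 CPM in BSA libraries. For Plaur the CCL26 libraries were all below the BSA libraries, and the log2 fold change was -0.18 with 8 libraries (SE 0.0726, edgeR adjusted p = 0.0800). Plau is on chromosome 14 from 20836660 to 20843385 and Plaur on chromosome 7 from 24462484 to 24475968, both on the plus strand.

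The growth factor genes split. Hbegf was near the detection limit, at 20, 26 and 23 counts in CCL26 libraries, 0, 39 and 22 counts in CX3CL1 libraries and 59, 45 and 39 counts in BSA libraries. In CPM these were 0.887, 1.25 and 1.25 with CCL26, 0, 2.26 and 0.930 with CX3CL1 and 3.03, 2.29 and 2.21 with BSA. The CCL26 libraries all lay below the BSA libraries, while the CX3CL1 libraries ran from none to within the BSA range; the 0 counts of CX3CL1 replicate 1 allow a level of up to 0.199 CPM, for counting error only. Its expression had a log2 fold change of CCL26 over BSA of -1.15 in both fits. It passed with 8 libraries (SE 0.400, edgeR adjusted p = 0.0448, 95% interval -1.98 to -0.33) and not with 9 (SE 0.871, edgeR adjusted p = 1.0). With 8 libraries the call was lost when any 1 of the BSA or CCL26 libraries was left out, where the adjusted p reached 0.168.

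Igf1 had 152, 151 and 137 CPM in CCL26 libraries, 190.3, 150.4 and 150.3 CPM in CX3CL1 libraries and 148, 145 and 148 CPM in BSA libraries. CCL26 libraries lay on both sides of the BSA libraries, and the 95% interval of the log2 fold change was -0.11 to 0.10 with 8 libraries. Igf1 lies on the plus strand of chromosome 10 from 87858265 to 87937042.

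Of the 5 genes whose CCL26 libraries all lay below BSA, 3 had a window in the set of RefSeq promoters (GRCm38.p6) searched here. The 250 bases before their RefSeq starts are shown 5′ to 3′ to set these genes side by side; of the 3, Spp1 passed the test and Tgfbi and Plaur did not. For Spp1 this is the first of 2 entries. For Tgfbi the RefSeq start lies inside the GENCODE gene, and the 63 bases within that gene were left out, so 187 are shown. They cover chr5:104434861-104435110 (Spp1), chr13:56609336-56609522 (Tgfbi) and chr7:24462233-24462482 (Plaur), all on the plus strand. Capitals mark matches on either strand to 9 motifs searched: TATAAA, AP-1 (TGANTCA), CRE (TGACGTCA), E-box (CACGTG), EGR (GCGTGGGCG or GCGGGGGCG), SMAD (GTCTAGAC or CAGACAG), the interferon response element (GAAA, NN and GAAA in a row), PU.1 (GAGGAAGT) and the CArG box.
Spp1: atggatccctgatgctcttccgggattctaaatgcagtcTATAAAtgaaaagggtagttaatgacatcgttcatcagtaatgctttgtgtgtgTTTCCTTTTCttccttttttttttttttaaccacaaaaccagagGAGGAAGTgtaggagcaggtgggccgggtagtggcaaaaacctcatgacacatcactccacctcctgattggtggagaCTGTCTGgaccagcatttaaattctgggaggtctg
Tgfbi: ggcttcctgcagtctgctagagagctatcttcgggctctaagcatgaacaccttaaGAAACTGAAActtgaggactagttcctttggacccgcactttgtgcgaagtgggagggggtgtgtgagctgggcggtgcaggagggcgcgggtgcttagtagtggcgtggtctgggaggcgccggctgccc
Plaur: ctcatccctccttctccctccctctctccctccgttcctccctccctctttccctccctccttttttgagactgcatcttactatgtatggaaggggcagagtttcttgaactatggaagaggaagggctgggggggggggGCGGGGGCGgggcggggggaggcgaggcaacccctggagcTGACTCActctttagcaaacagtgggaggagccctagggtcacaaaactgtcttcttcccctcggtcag
In order along the strand, the Spp1 capitals match TATAAA, the interferon response element (reverse strand), PU.1 and SMAD (reverse strand). The Tgfbi capitals match the interferon response element. The Plaur capitals match EGR and then AP-1. The set searched held 32817 mouse promoter windows of 250 bases, and a gene without a window in it may still have a RefSeq entry. Of these windows, 12.4% hold TATAAA, 2.97% the interferon response element, 2.44% PU.1, 6.43% SMAD, 3.06% EGR and 6.75% AP-1. No motif was in all 3 windows, no marked matches overlapped, and a match describes letters, not binding.

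With CX3CL1 against BSA, Thbs1 was the only one of the 9 genes to pass in the fit of 8 libraries, where it fell by 18.8% (log2 fold change -0.30, SE 0.0528, edgeR adjusted p = 0.0133, n = 2 against 3). In that fit 0.332% of all genes passed and 0.31% fell. With all 9 libraries none of the 9 genes passed, and 0% of all genes did; 405 of all genes, or 3.14%, and none of the 9 had an unadjusted p under 0.05, and DESeq2 called no gene. The fold change of Thbs1 was then -0.62 (SE 0.294, edgeR adjusted p = 0.711), as CX3CL1 replicate 1, at 69.7 CPM, lay further down than the other 2. The call with 8 libraries was lost when any 1 BSA library, CX3CL1 replicate 2 or CX3CL1 replicate 3 was left out (adjusted p up to 0.311, log2 fold changes of -0.32 to -0.28).

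For the other 8 genes the log2 fold changes of CX3CL1 over BSA in the fit of 8 libraries ran from -0.68 for Hbegf to 0.043 for Tgfbi. Intervals were narrow for the abundant genes. Spp1 had -0.056 to 0.10 and Tgfb1 -0.066 to 0.11. They were wide for Fn1 (-1.15 to 0.24) and Hbegf (-1.59 to 0.23). The 3 CX3CL1 libraries lay above the BSA libraries for Tgfb1 and Igf1, which 4.77% of all genes showed, and below for Thbs1, which 6.93% showed. With CX3CL1 replicate 1 left out, these shares of all genes were 12.6% and 13.2%. For Tgfb1 the groups nearly touched, at 427.09 CPM in CX3CL1 replicate 2 and 426.99 CPM in BSA replicate 1.

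CX3CL1 replicate 1 itself was outside the range of the other 8 libraries for 7 of the 9 genes, and for 78.9% of all tested genes. It was above them for Tgfb1, at 1.73 times their mean, Spp1 (1.70 times), Igf1 (1.29 times) and Tgfbi (1.24 times). It was below them for Thbs1 (0.366 times), Plau (0.785 times) and Hbegf (no counts), and inside their range for Fn1 and Plaur. Hbegf is on the minus strand of chromosome 18 from 36504927 to 36515805. The higher CX3CL1 group means of Spp1 and Tgfb1 thus came with this library: Spp1 averaged 2517 ± 727 CPM with CX3CL1 (SD, n = 3), or 2097 ± 33.3 CPM without replicate 1 (SD, n = 2), and 2067 ± 44.9 CPM with BSA (SD, n = 3).

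**Figure D3:**
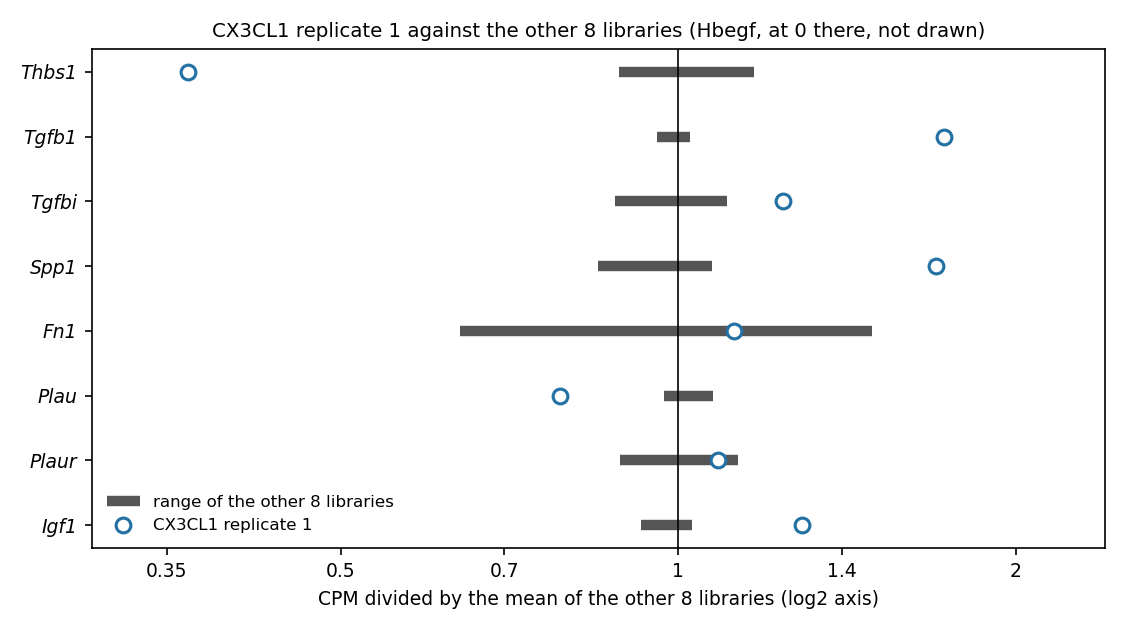
CPM of CX3CL1 replicate 1 (open circles) divided by the mean of the other 8 libraries, on a log2 axis, with the range of those 8 as bars; Hbegf, without counts in that library, is not drawn. Tgfb1 at 1.73 and Spp1 at 1.70 lie far above the range and Thbs1 at 0.366 far below it.

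The direct comparison of the chemokines separated Spp1 and did not separate Thbs1. In the fit of 8 libraries Spp1 fell by 13.5% with CCL26 relative to CX3CL1 (log2 fold change -0.21, SE 0.0376, edgeR adjusted p = 0.000432, n = 3 against 2), the only call among the 9 genes, where 10.1% of all genes passed and 4.64% were lower. With all 9 libraries no call was made among the 9 (0.41% of all genes passed); Spp1 had -0.47 (SE 0.1803, edgeR adjusted p = 0.423) and Tgfbi -0.26 (SE 0.116, edgeR adjusted p = 0.423), the only ones with an unadjusted p under 0.05 (11.5% of all genes). For Thbs1 the difference of CCL26 from CX3CL1 was 0.013 in the fit of 8 libraries, with a 95% interval of -0.096 to 0.12, and 0.33 (interval -0.33 to 1.0) with 9. The CCL26 libraries were below the CX3CL1 libraries for Spp1 and Tgfbi, which 9.76% of all genes showed. With CX3CL1 replicate 1 left out, the share of all genes was 18.5%. Tgfbi had -0.18 with 8 libraries (SE 0.0648, edgeR adjusted p = 0.0753). When the 3 groups were tested together, Thbs1 and Spp1 passed with 8 libraries (16.3% of all genes passed), and none of the 9 genes passed with 9 libraries (0.441%).

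**Figure D4:**
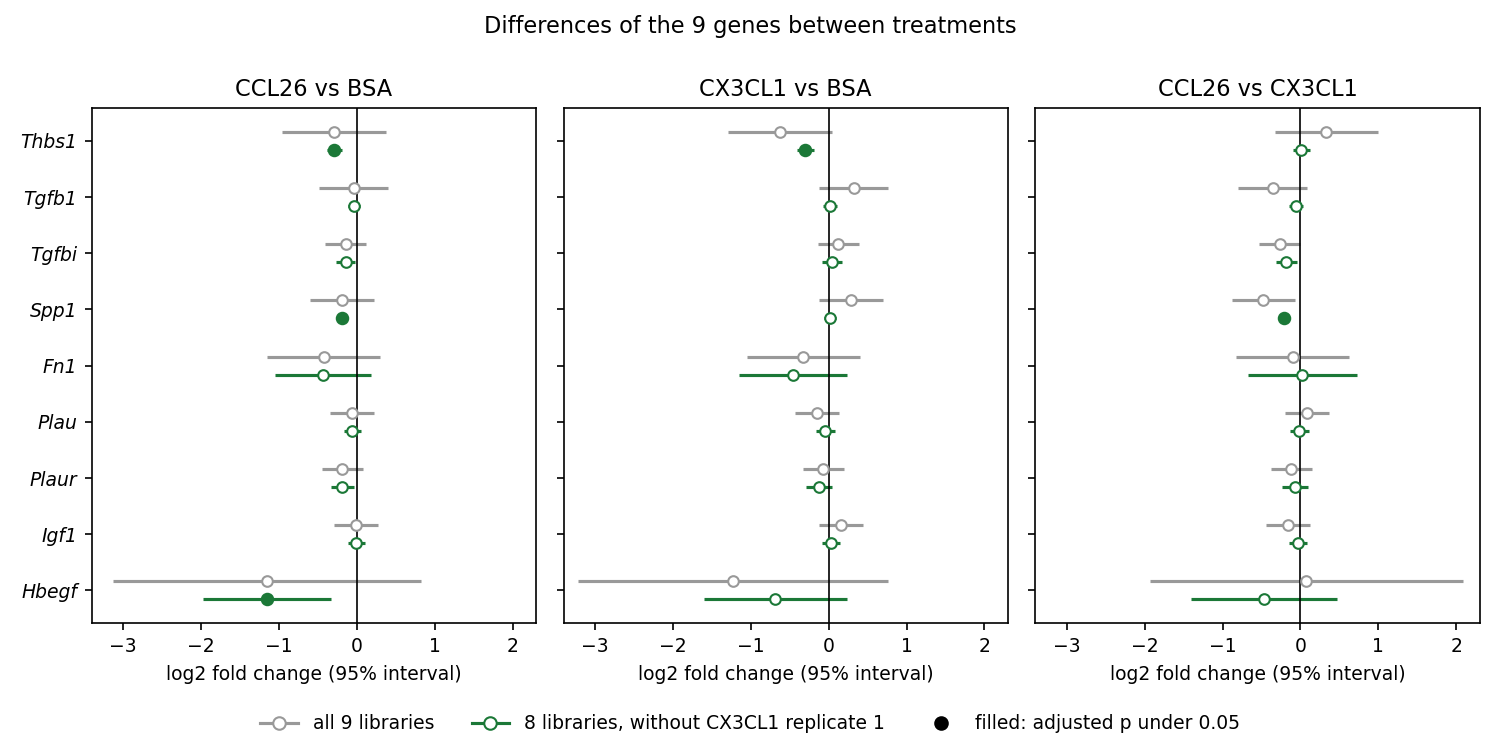
Log2 fold changes of the 9 genes with 95% intervals in 3 comparisons, from all 9 libraries (grey, upper line of each pair) and from the 8 without CX3CL1 replicate 1 (green, lower line); filled points have an adjusted p under 0.05. The CCL26 against BSA estimates of both fits nearly coincide, replicate 1 being in neither group (for Thbs1 -0.29 in each), while the intervals with 9 libraries are wider, and the filled points are Thbs1, Spp1 and Hbegf for CCL26 against BSA, Thbs1 for CX3CL1 against BSA and Spp1 for CCL26 against CX3CL1.

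The genes around the 9 were read from 7 lists; those named are the 3 of each list with the smallest p in the fit of 9 libraries unless stated, and values here are log2 fold changes of CCL26 over BSA in the fit of 8 libraries unless stated. Of all genes in the fit of 8 libraries, 9.74% rose and 9.26% fell, 19.0% in all, with a median of 0.0082. With all 9 libraries 1 gene of these lists passed, Csf1. Of 23 tested genes for TGF-beta activation, receptors and targets, 3 rose, 6 fell and 14 did not pass, with a median of -0.11. With upper quartile scaling 1 rose and 8 fell. The inhibitory SMAD gene Smad7 fell to 5.23 ± 1.55 CPM with CCL26, against 11.5 ± 1.55 CPM with BSA (SD, n = 3 each; -1.14, edgeR adjusted p = 0.000108). The pseudoreceptor gene Bambi fell (-0.39), and the SMAD corepressor gene Skil rose to 145 ± 9.80 CPM, against 100.1 ± 2.78 CPM (0.53, edgeR adjusted p = 1.40e-07). Tgfbr1, the type I receptor gene, also fell (-0.35); it is named here after its value was seen, and its edgeR adjusted p of 1.50e-06 was smaller than that of Bambi.

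In the plasminogen system 2 of 18 tested genes rose, 7 fell and 9 did not pass, with a median of -0.25, against 9.74% of all genes that rose and 9.26% that fell. Tfpi, an inhibitor of the tissue factor pathway, fell (-0.43) and the coagulation factor gene F10 rose (0.71). The genes of the plasminogen-binding pair S100a10 (-0.27) and Anxa2 (-0.13), and Eno1 (-0.26), the glycolytic enzyme enolase that also binds plasminogen, were named after their values were seen and fell as well.

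In the other lists the share of genes called was set against the 19.0% of all genes. Of 19 matrix genes 2 rose and 2 fell (median -0.014), a share near it, with Vcan, a proteoglycan, at 0.83 and Efemp2, an elastic fibre protein, at -0.91. Both of these were low in level. Vcan had 3.87 ± 1.25 CPM with CCL26 and 2.18 ± 0.154 CPM with BSA (SD, n = 3 each). Efemp2 had 1.91 ± 0.640 CPM with CCL26 and 3.58 ± 0.411 CPM with BSA (SD, n = 3 each). Ecm1 had -0.22 (edgeR adjusted p = 0.0862). Lgals1, the lectin galectin-1 gene, named after its value was seen, fell (-0.23). Of 11 matrix receptor genes 2 rose and 2 fell (median 0.0031), or 1 and 3 with upper quartile scaling. The collagen receptor gene Lair1 rose (0.22), and Sdc1 (-0.50) and Sdc2 (-0.46) did not pass. The thrombospondin receptor genes Cd36 and Cd47, named after their values were seen, went opposite ways. Cd36 fell (-0.29) and Cd47 rose (0.13, edgeR adjusted p = 0.0297). Of 10 IGF signalling genes Insr rose (0.31), 3 fell, among them Irs2 (-0.50) and Igfbp4 (-0.25), and 6 did not pass (median -0.029). Of 13 EGF family genes 2 rose and 1 fell (median 0.13). The tetraspanin gene Cd82 rose (0.36) and Cd9, whose product associates with the HB-EGF precursor, fell (-0.34). Egf, with 1.65, did not pass (edgeR adjusted p = 0.196).

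Among 20 other growth factor genes 2 rose and 3 fell, where 19.0% of all genes passed, with a median of 0.015; with upper quartile scaling 2 rose and 5 fell. Csf1, the macrophage growth factor, rose to 56.1 ± 1.602 CPM with CCL26, against 21.04 ± 3.94 CPM with BSA (SD, n = 3 each), a log2 fold change of 1.42 with 8 libraries (edgeR adjusted p = 2.23e-10) and 1.41 with 9 (edgeR adjusted p = 0.0169). Pdgfb rose (0.54) and Pros1, a ligand of TAM receptors, fell (-0.37). For CX3CL1 over BSA no gene of these 7 lists passed in either fit, where 0.332% of all genes passed with 8 libraries and 0% with 9.

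**Figure D5:**
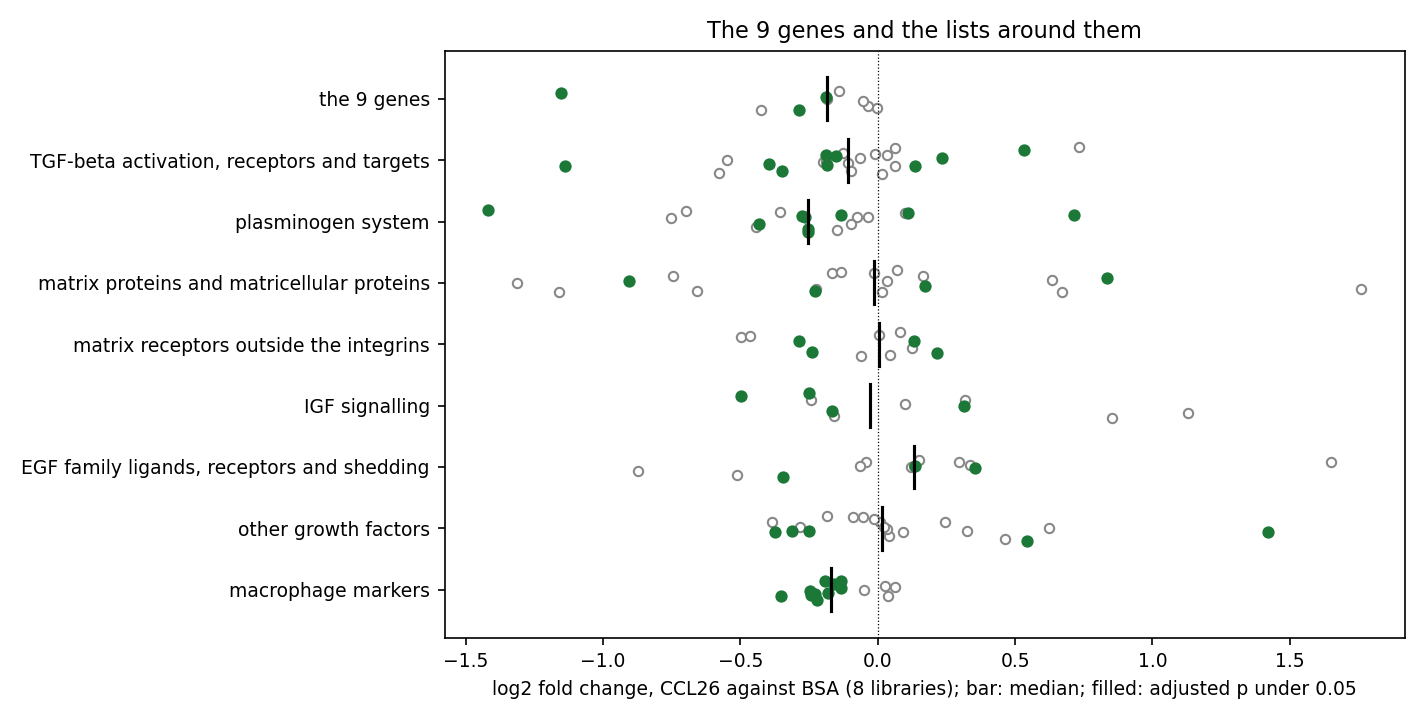
Log2 fold changes of CCL26 over BSA in the fit of 8 libraries for the 9 genes, 7 lists around them and macrophage markers; each point is a tested gene, filled at an adjusted p under 0.05, and the bar is the list median. The 9 genes all lie at or below 0 with a median of -0.18, the plasminogen list has a median of -0.25, and macrophage markers have 10 filled points below 0 and none above.

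The markers of other cells that a marrow culture can hold stayed low beside macrophage markers. Monocyte markers (7 of 8 in the table) summed to 25.6 to 28.7 CPM with CCL26, 24.1 to 38.0 CPM with CX3CL1 and 23.4 to 27.6 CPM with BSA. Granulocyte markers (10 of 12) summed to 107 to 109 CPM with CCL26, 100.01 to 198 CPM with CX3CL1 and 94.4 to 99.6 CPM with BSA. Megakaryocyte markers (7 of 10), mostly Pf4, which macrophages also express, summed to 70.4 to 78.7 CPM with CCL26, 91.5 to 271 CPM with CX3CL1 and 85.5 to 88.2 CPM with BSA. The highest CX3CL1 sum of each of these lists was that of replicate 1. Without it, CX3CL1 sums were 24.1 to 27.0 CPM (monocyte) and 100.01 to 110.1 CPM (granulocyte). Megakaryocyte markers then summed to 91.5 to 94.2 CPM with CX3CL1. The part of these cells in the results was not tested. The platelet markers Gp1bb and Gp6 were among those not in the table.

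As a description of which genes had the most similar pattern, log2 CPM was correlated with that of each other gene over the 8 libraries. These libraries share the same 3 treatments and scaling, so high values are common. Spp1 was closest to Itgb1 (r = 0.995), the integrin beta 1 gene, and to Ripk1 (0.991). Thbs1 was closest to Wsb1 (0.965) and Odc1 (0.964), Tgfbi to Sh3gl1 (0.983) and Grn (0.975), and Tgfb1 to Pdap1 (0.972) and Dnajc4 (0.958). Igf1 was closest to Fcho2 (0.971) and Nuf2 (0.967), Plaur to Ubn1 (0.965) and Patz1 (0.943), and Plau to Alas1 (0.935) and Slc35d2 (0.934). For the low genes the closest were Gabarapl2 (0.963) and Klf11 (0.957) for Hbegf, and Utp18 (0.922) and Llph (0.912) for Fn1. Between the 9 genes themselves the highest r were 0.887 for Tgfb1 with Tgfbi and 0.835 for Plaur with Hbegf.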

How the data were processed

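RNA was sequenced as read pairs of 150 bp, per the labels. The authors deposited 1 table of read counts per gene, without normalization. Per the submitters' processing notes, tools were STAR, featureCounts and MultiQC, of no stated version, and builds GRCm38 and mm10. Removal of low genes and use of strand are not described in the labels. The 9 genes and the lists were chosen with earlier results of these data known.

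A single model with a term for group was fitted to all 9 libraries (edgeR 4.0.16, filterByExpr, TMM scaling, quasi-likelihood F test, R 4.3.3), with Benjamini-Hochberg adjustment over all genes tested and a threshold of 0.05; the same was done without CX3CL1 replicate 1. Intervals are at 95%. Floors for 0 are 3 counts. Depth was 16923982 to 23198324 counts per library. Replicates were compared by chi-square, and none differed by less than sampling noise. The fit was tested on simulated data. Named list genes are the 3 with the smallest p for CCL26 against BSA in each list in the fit of 9 libraries (other genes had smaller p without CX3CL1 replicate 1), of which 1 in the plasminogen list is not reported here; similar genes needed a mean of 5 CPM. Alternatives used DESeq2 1.42.0 and limma 3.58.1, other scalings and filters, the replicate number as a block, and left-out libraries; 4 that combine leaving out CX3CL1 replicate 1 with another scaling or test were chosen after seeing the data. Same-numbered libraries did not deviate together (correlations of -0.078 to 0.051).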

Additional observations from a re-analysis of the deposited data

How the results depend on the processing

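The number of the 9 genes called turned on CX3CL1 replicate 1. With it, none was called in any comparison when the scaling was upper quartile or by DESeq2 size factors, the filter was dropped or set at 5 CPM in 3 libraries, or the fit was DESeq2, limma-voom, robust dispersion or the replicate block. The exception was limma-voom with quality weights, with 3 for CCL26 against BSA (2479 of all genes), 1 for CX3CL1 against BSA (29), 2 for CCL26 against CX3CL1 (1340) and 3 for the 3 groups. Counts of all genes also moved for CCL26 against BSA and against CX3CL1 with DESeq2 (248 and 253) and with the replicate block (14 and 11). The 6 libraries of CCL26 and BSA alone, a fit that does not hold CX3CL1 replicate 1, gave 3 of the 9 and 2417 of all genes. Those of CCL26 and CX3CL1, which hold it, gave 4 of all genes.

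Without CX3CL1 replicate 1, calls for CCL26 against BSA, CX3CL1 against BSA and CCL26 against CX3CL1 were 3, 1 and 1 of the 9 and 2517, 44 and 1338 of all genes. They were 3, 1 and 1 with DESeq2 size factors (2526, 44 and 1346), 5, 1 and 2 with upper quartile scaling (2656, 55 and 1442), 3, 1 and 2 with DESeq2 (2584, 95 and 1483) and 3, 1 and 1 with limma-voom (2502, 64 and 1390). Upper quartile scaling added Tgfbi and Plaur for CCL26 against BSA; it gave 1091 genes higher and 1565 lower, against 1290 and 1227. With the replicate block added they were 2, 1 and 1 (2510, 16 and 1200), Hbegf being lost, though the shared numbers do not pair the libraries. The 3 groups gave 2, and 3 with upper quartile scaling. Leaving out libraries gave 0 to 3, 0 to 1 and 0 to 2 of the 9, 9 to 2734, 0 to 187 and 10 to 1720 of all genes, and 0 to 3 for the 3 groups. Thbs1 and Spp1 for CCL26 against BSA, and Spp1 for CCL26 against CX3CL1, were called in 14 of 14 settings without CX3CL1 replicate 1. The fit of CCL26 and BSA libraries alone is not counted in these settings. The causes were not tested.

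Signs turned for differences that were called in no setting that was run. For CCL26 against CX3CL1 on the log2 scale, Hbegf had 0.074 with 9 libraries and -0.47 with 8; with 8 it was -0.47 with DESeq2 size factors, -0.49 with upper quartile scaling, -0.48 with DESeq2, -0.28 with limma-voom and -0.43 with the replicate block, and -0.33 with quality weights on 9. Fn1 had -0.10 with 9 and 0.026 with 8, where it was 0.022 with DESeq2 size factors, 0.023 with DESeq2, 0.0056 with upper quartile scaling and 0.074 with the block. Plau had 0.088 with 9 and -0.014 with 8; with 8 it was -0.018 with DESeq2 size factors and with DESeq2, -0.034 with upper quartile scaling and -0.015 with limma-voom, and it was -0.012 with quality weights on 9. Thbs1 on 8 was -0.0075 with the block and -0.0074 with upper quartile scaling. Igf1 for CCL26 against BSA was 0.014 with quality weights. Leaving out single libraries moved the CCL26 against CX3CL1 values over -1.0 to 1.17 for Hbegf, -0.24 to 0.22 for Fn1, -0.027 to 0.15 for Plau, -0.0047 to 0.54 for Thbs1, -0.18 to 0.020 for Plaur and -0.22 to 0.0100 for Igf1. It moved Igf1 over -0.032 to 0.043 for CCL26 against BSA and Tgfbi over -0.021 to 0.18 for CX3CL1 against BSA.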
